A study of Mus musculus with 6 samples.

Results

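The ISG15 conjugation pathway was described from 5 genes of the mouse: Isg15, Uba7, Ube2l6, Herc6 and Usp18. They were taken by symbol from the deposited table of RNA-Seq read counts, where they are 5 of 55453 genes, and all 5 were among the 13680 genes that passed a filter on low counts and were tested. ISG15 is a ubiquitin-like protein that is joined to other proteins through a chain of enzymes, in the same manner as ubiquitin. UBA7 is the E1 enzyme that activates it, UBE2L6 the E2 that carries it, and HERC6 the main E3 ligase of the mouse, while USP18 removes it again and also dampens signalling at the Type I IFN receptor. All of these genes are classic IFN-stimulated genes, and in macrophages the modifier acts both inside the cell, on antiviral proteins, and outside it, as a secreted cytokine-like protein.

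The libraries came from bone marrow-derived macrophages (BMDM) of LysMcre PP2Ac fl/fl mice (PP2Ac KO, 3 libraries) and of wildtype C57BL/6 mice (PP2Ac WT, 3 libraries). PP2Ac is the catalytic subunit of protein phosphatase 2A, and exon 1 of its gene, Ppp2ca, is flanked by loxP sites and removed by a cre recombinase under the Lyz2 (LysM) promoter, which is active in myeloid cells. The study described mice of both sexes at 6 to 10 weeks of age, BMDM collected on day 7 of culture, and cGAMP, the cyclic dinucleotide that activates STING, at 10 μg/mL for 4 hours before the RNA-Seq. The sample labels name no treatment, and no unstimulated library was analysed here, so all values below compare the genotypes and none is an induction by cGAMP. The WT mice carried no cre and came from another supplier than the KO mice, so cre, colony and loss of PP2Ac cannot be told apart. No source states whether the 3 libraries of a genotype came from separate mice, so p-values measure the spread between these libraries, which may be technical.

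Total counts ran from 35257156 to 46647682 in the KO and from 38235133 to 47390899 in the WT libraries, and 3 counts, the floor used here, corresponded to a level of 0.0604 to 0.0909 CPM (counts scaled to the size of the library). The first principal component held 70.3% of the variance and parted the genotypes. Ppp2ca, the targeted gene, had 47, 33 and 38 counts in the KO against 10654, 8913 and 8279 in the WT libraries, a log2 fold change of -7.67 (SE 0.10, edgeR adjusted p = 3.17e-10), so the label of every library held. Of 8 macrophage markers all were measured, with summed levels of 8623 to 8733 CPM in KO and 7279 to 7840 CPM in WT BMDM. Fcgr1, the high-affinity IgG receptor (log2 fold change 0.70, adjusted p = 4.90e-04), and Mertk, a receptor for apoptotic cells (0.27, adjusted p = 0.0398, but 0.0509 to 0.138 when any 1 library other than WT replicate 1 was left out), rose and 0 of the 8 fell (5 rose with the replicate number as a block). Lyz2 itself was low, at 260 to 421 counts per library.

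The regulatory sequence of Isg15 is shown because it holds the element through which Type I IFN is known to act. The window below is the 250 bases before the RefSeq transcription start of Isg15 (GRCm38.p6, chr4:156200819-156201068, minus strand), written 5′ to 3′, with capitals marking the stretch that matches GAAANNGAAA, the core of the IFN-stimulated response element bound by ISGF3, searched on both strands.
Isg15 promoter: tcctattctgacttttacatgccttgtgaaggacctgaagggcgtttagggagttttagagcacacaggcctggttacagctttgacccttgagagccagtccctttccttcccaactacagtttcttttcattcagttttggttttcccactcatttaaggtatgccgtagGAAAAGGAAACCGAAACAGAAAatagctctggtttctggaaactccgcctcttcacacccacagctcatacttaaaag
The capitals are a run of 22 bases, from 78 to 57 bases before the start (chr4:156200875-156200896), in which 3 matches overlap, GAAAAGGAAA, GAAACCGAAA and GAAACAGAAA. The motif was present in 978 of 32851 RefSeq promoter windows of this length (2.98%), or in 936 of 27025 genes (3.46%). Among the pathway genes 4 had a window, all but Usp18, and Isg15 was the 1 of these 4 with a match. Of 6 genes of the IFIT family, also IFN-stimulated, 5 had a match. These are exact matches of letters within one window, and no binding was measured. Near matches and elements elsewhere were not counted, so a gene without a match may still hold such an element.

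All 5 genes were higher in PP2Ac KO than in PP2Ac WT BMDM at an adjusted p under 0.05, by 2.04-fold to 2.41-fold. Among all genes tested 2470 (18.1%) rose and 2604 (19.0%) fell at that threshold, so that 48.7% of the called genes were higher (38.4% with upper-quartile scaling). With a log2 fold change over 1 and an adjusted p under 0.01, all 5 genes passed, against 460 of all genes (3.36%). In all 5 the lowest KO library lay above the highest WT library, which held for 3290 of all genes (24.0%). These are bulk libraries, in which more cells that make a transcript and more of it per cell cannot be told apart. Levels are given as CPM scaled by the TMM method, which sets libraries on a common footing by the bulk of their genes. The TMM factors were 0.910 to 0.937 in KO and 1.05 to 1.10 in WT libraries. Compared with scaling by total counts alone, they therefore raise KO levels relative to WT levels. Whether all 5 genes pass a log2 fold change of 1 without these factors was not tested.

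**Figure D1:**
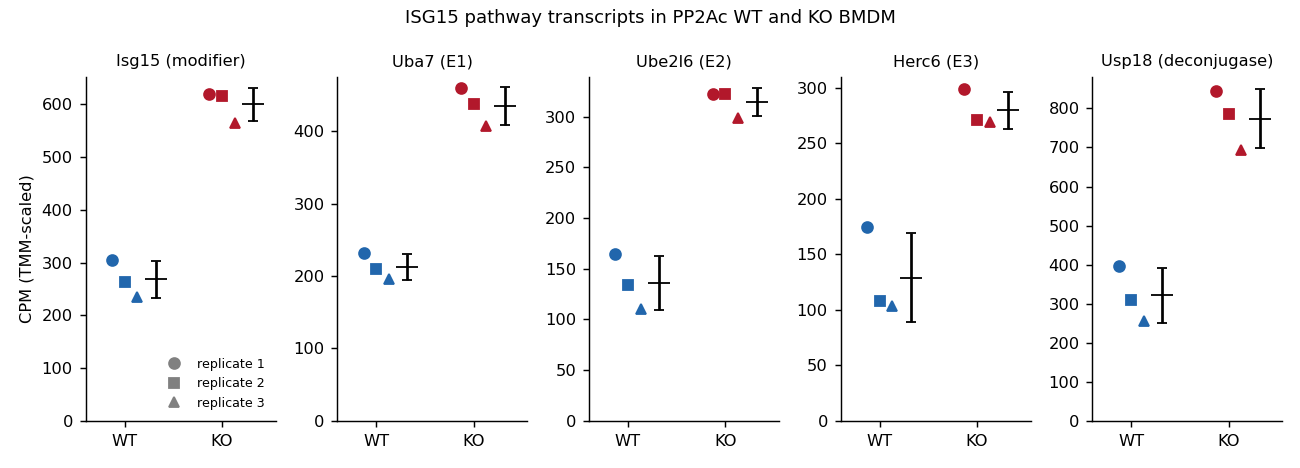
CPM (TMM-scaled, linear axis from 0) of the 5 pathway genes in each library, with WT and KO on the x axis, a marker shape for each replicate number, and the mean of each genotype with its SD (n = 3). In every panel the 3 KO libraries lie above the 3 WT libraries, and replicate 1 is the highest and replicate 3 the lowest of each genotype.

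Isg15 (chr4:156199424-156200818, minus strand, GRCm38), the modifier itself, was measured at 620.0, 616.7 and 563.9 CPM in the KO and at 305.5, 264.2 and 234.8 CPM in the WT libraries. The lowest KO library was 1.85-fold above the highest WT library. Mean levels were 600.2 ± 31.5 and 268.2 ± 35.5 CPM (SD, n = 3 each), a log2 fold change of 1.16 (SE 0.10, 95% interval 0.94 to 1.39, edgeR adjusted p = 7.97e-05) or 2.24-fold.

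Uba7 (chr9:107975505-107984060, plus strand), the E1 enzyme at the head of the chain, stood at 459.8, 437.8 and 407.2 CPM in KO and at 232.0, 209.8 and 196.4 CPM in WT libraries. It had the smallest fold change and, with Isg15, the tightest WT values of the 5 genes. The means of 435.0 ± 26.4 and 212.7 ± 18.0 CPM (SD, n = 3 each) gave a log2 fold change of 1.03 (SE 0.08, 95% interval 0.85 to 1.22, edgeR adjusted p = 6.16e-05).

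Ube2l6 (chr2:84798828-84810335, plus strand), the E2 enzyme that receives ISG15 from UBA7, was at 322.5, 321.8 and 298.3 CPM in KO and at 164.1, 133.6 and 110.2 CPM in WT libraries. The KO libraries lay close together, with a coefficient of variation of 4.37% against 19.9% in WT. The log2 fold change between 314.2 ± 13.7 and 136.0 ± 27.0 CPM (SD, n = 3 each) was 1.21 (SE 0.13, 95% interval 0.92 to 1.49, edgeR adjusted p = 1.77e-04).

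Herc6 (chr6:57581000-57664632, plus strand), the E3 ligase that passes ISG15 to its targets, was at 299.3, 271.5 and 269.1 CPM in KO and at 175.1, 108.2 and 103.7 CPM in WT libraries. WT replicate 1 stood well above the other WT libraries, and the lowest KO library was only 1.54-fold above it. The log2 fold change between 280.0 ± 16.7 and 129.0 ± 40.0 CPM (SD, n = 3 each) was 1.12 (SE 0.18, 95% interval 0.72 to 1.52, edgeR adjusted p = 0.00124), the least certain of the 5. Herc6 shares 1269 bases of exon, 13.7% of its own, with Gm45193 on the same strand, a gene listed with 0 counts in every library, and reads in the shared stretch could not have been assigned to one of them without a rule.

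Usp18 (chr6:121245906-121270917, plus strand), the protease that takes ISG15 off its targets, had the highest CPM of the group, 844.3, 784.5 and 693.3 in KO and 397.7, 309.2 and 256.6 in WT libraries. It also had the largest fold change. The means of 774.0 ± 76.0 and 321.2 ± 71.3 CPM (SD, n = 3 each) gave a log2 fold change of 1.27 (SE 0.15, 95% interval 0.94 to 1.60, edgeR adjusted p = 2.81e-04). Transcripts of the enzymes that attach ISG15 and of the one that removes it were therefore higher in the same libraries.

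The 5 intervals overlap one another and each holds a log2 fold change of 1. When the fold change was tested against 1 on the log2 scale and not against 0 (glmTreat in edgeR), 0 of 5 genes passed an adjusted p of 0.05 (adjusted p = 0.406 to 1) and 3 of 5 an unadjusted p of 0.05, so each gene rose, and a rise beyond 2-fold did not pass the test. By size of fold change they ranked from 307 (Usp18) to 506 (Uba7) of the 13680 genes. The summed level of the 5 genes was 2545.8, 2432.4 and 2231.9 CPM in KO and 1274.3, 1025.0 and 901.7 CPM in WT libraries. They took up 0.209% to 0.232% of all counts in KO and 0.0989% to 0.134% in WT BMDM. These shares leave out the TMM factors, and by them the genotypes lie closer together than by summed CPM.

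Levels of different genes are compared per length of exon, in CPM per kb. The length counts every base that is exon in any annotated transcript. It was 6692 bases in Uba7 (15 transcripts) and 9292 in Herc6 (6 transcripts), against 756 in Isg15 (1 transcript). Where the transcripts present were shorter than this length, the level per kb is understated. On that scale Isg15, whose exons span 756 bases, was far the most abundant, at 794.0 ± 41.6 in KO and 354.7 ± 46.9 in WT BMDM (SD, n = 3 each). Usp18 followed at 277.4 ± 27.2 and 115.1 ± 25.6, Ube2l6 at 157.4 ± 6.88 and 68.1 ± 13.5, Uba7 at 65.0 ± 3.95 and 31.8 ± 2.68, and Herc6 at 30.1 ± 1.80 and 13.9 ± 4.30 CPM per kb. By this length the order was modifier, protease, E2, E1 and E3 in both genotypes, and neighbours in it did not overlap in any library of the same genotype. The order and the shares below depend on the length used. Isg15 made up 59.2% to 60.5% of the summed level per kb in KO and 59.2% to 62.3% in WT libraries, and Usp18 20.1% to 21.8% and 18.5% to 20.9%.

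**Figure D2:**
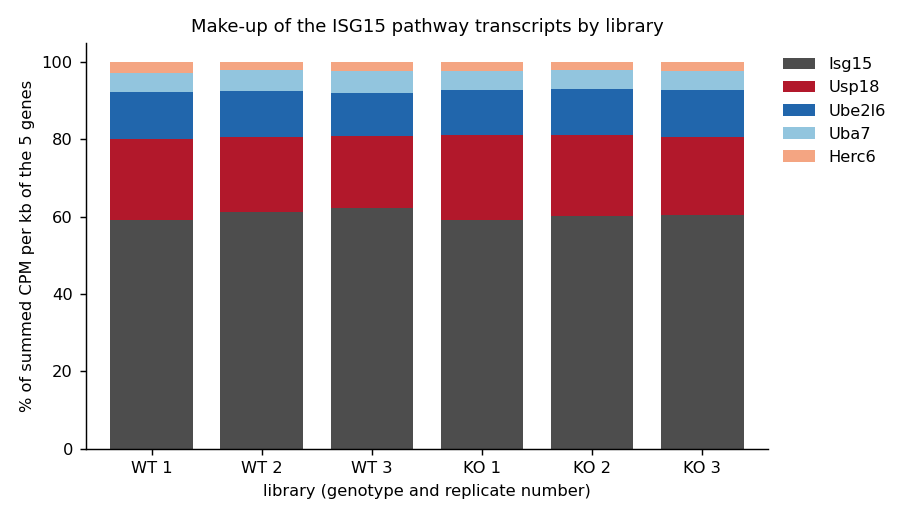
Share of each of the 5 genes in their summed CPM per kb of exon (% on the y axis, stacked to 100%) in each of the 6 libraries. Isg15 fills 59.2% to 62.3% of every bar, and the make-up differs little between genotypes although the summed level does.

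Whether the enzymes moved with their modifier was examined by the ratio of counts to Isg15 within a library, in which library scaling cancels. Uba7 had 0.725 ± 0.0160 reads for each Isg15 read in KO and 0.797 ± 0.0386 in WT BMDM (SD, n = 3 each). The ratios were 0.742, 0.710 and 0.722 in KO and 0.759, 0.794 and 0.836 in WT libraries, without overlap, and the log2 difference was -0.14 (SE 0.04, two-sided exact permutation p = 0.1, the smallest that 3 against 3 allows, adjusted p = 0.4 over 4 ratios). Ratios of Ube2l6 (0.524 ± 0.00474 and 0.504 ± 0.0339), Herc6 (0.467 ± 0.0231 and 0.475 ± 0.0867) and Usp18 (1.29 ± 0.0675 and 1.19 ± 0.106) overlapped between the genotypes, with exact permutation p from 0.3 to 0.9 and log2 differences of 0.057 (SE 0.057), -0.010 (SE 0.15) and 0.12 (SE 0.085). Within pairs of libraries of the same number, the ratio of Usp18 was higher in KO in 3 of 3 pairs and that of Uba7 lower in 3 of 3 (exact sign-flip p = 0.25 each, two-sided, the smallest that 3 pairs allow), while Ube2l6 and Herc6 were higher in 2 of 3 pairs (p = 0.75 and 1). Neither test can pass 0.05 with 3 libraries a genotype.

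The enzymes of the pathway have close relatives that serve ubiquitin. Uba1, the main E1 of ubiquitin, rose slightly, from 266.9 ± 12.95 to 317.1 ± 17.7 CPM (log2 fold change 0.25, edgeR adjusted p = 0.0220, but 0.0511 to 0.0938 when KO replicate 1 or 2 or WT replicate 2 or 3 was left out), and Uba6, the other ubiquitin E1, was at 34.98 ± 1.65 CPM in KO and 35.6 ± 3.44 in WT BMDM (-0.03, 95% interval -0.21 to 0.15, adjusted p = 0.815). Ube2l3, the E2 most similar to UBE2L6, stood at 176.7 ± 6.88 and 175.4 ± 4.98 CPM (0.01, 95% interval -0.13 to 0.15, adjusted p = 0.910). Of the other small HERC ligases, Herc3 rose (0.44, SE 0.09, adjusted p = 0.00513), while Herc4 had a log2 fold change of -0.02 (95% interval -0.19 to 0.16, adjusted p = 0.892).

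The difference between a pathway gene and its relative is described as a ratio of counts. Ube2l6 had 1.91, 1.80 and 1.63 reads for each Ube2l3 read in KO and 0.915, 0.754 and 0.649 in WT libraries, a log2 difference of 1.22 (SE 0.16). Uba7 likewise had 1.37 ± 0.0467 reads for each Uba1 read in KO and 0.796 ± 0.0439 in WT BMDM (SD, n = 3 each), a log2 difference of 0.79 (SE 0.05). Herc6 against Herc4 (log2 difference 1.17) and Herc3 (0.72), Uba7 against Uba6 (1.06), and Isg15 against the polyubiquitin gene Ubb (0.88) differed in the same direction. In all 6 ratios the genotypes did not overlap. Each gave a two-sided exact permutation p of 0.1, also after adjustment over the 6, the smallest value possible here. The ratios were added after the fits had been seen, when the pathway genes were known to be apart between the genotypes. Their p-values therefore add no support.

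**Figure D3:**
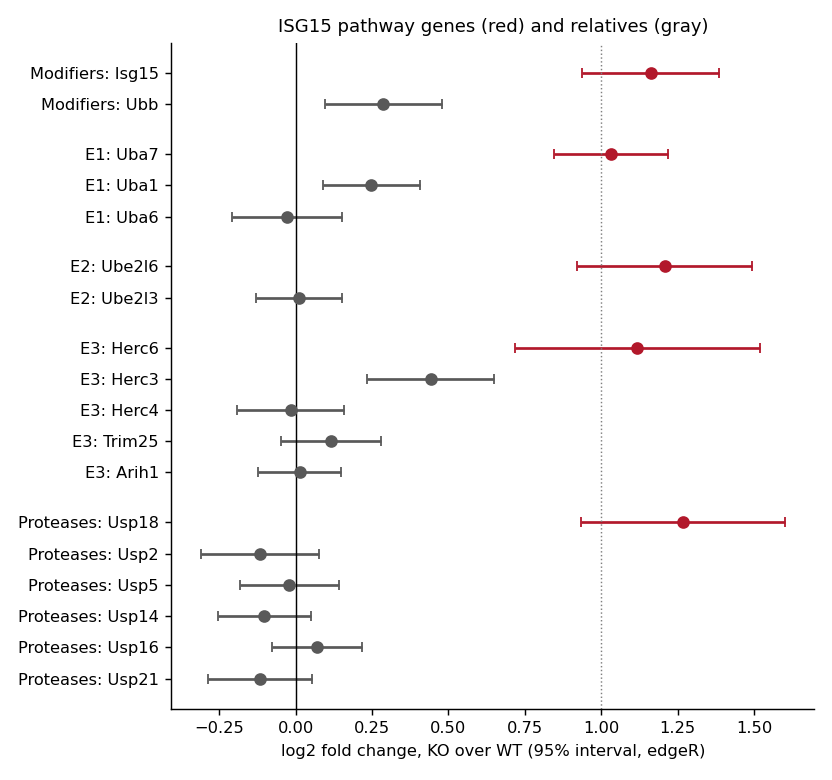
Log2 fold change, KO over WT, of the 5 pathway genes (red), with 95% intervals from edgeR and lines at 0 and 1. Gray points are relatives that serve ubiquitin or other modifiers, and the other reported ISG15 ligases and proteases. The pathway genes lie from 1.03 to 1.27, while Uba6, Ube2l3 and Herc4 lie at -0.03, 0.01 and -0.02. Herc3, Ubb and Uba1 were also higher, at 0.44, 0.29 and 0.25. The other ISG15 ligases and proteases lie from -0.12 to 0.12.

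Beyond the 5 genes, other parts of the ISG15 system were given by lists chosen with earlier results of these data known. Of the other reported ISG15 ligases, 0 of 2 passed edgeR's test (0 at an unadjusted p of 0.05, and 0 by DESeq2 or limma-voom). Trim25, which ubiquitinates RIG-I, was at 708.3 ± 37.6 CPM in KO and 653.0 ± 32.8 in WT BMDM (log2 fold change 0.12, adjusted p = 0.239, or 0.0301 with the replicate number as a block), and Arih1 had a log2 fold change of 0.01 (adjusted p = 0.887). Of 6 other proteases reported to act on ISG15, Usp2, Usp5, Usp14, Usp16 and Usp21 were tested and 0 passed edgeR's test (0 at an unadjusted p of 0.05, and 0 by DESeq2 or limma-voom), with log2 fold changes of -0.12 to 0.07, and Usp13 had 0 to 8 counts. Usp18 was therefore the 1 of 6 tested ISG15 proteases that rose.

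LFA-1, an integrin of 2 chains reported as the receptor of secreted ISG15, had chains that moved in opposite directions. Itgal, its alpha chain, was at 181.5 ± 25.2 CPM in KO and 89.9 ± 11.4 in WT BMDM (SD, n = 3 each), a log2 fold change of 1.01 (SE 0.12, edgeR adjusted p = 2.79e-04). Itgb2, the beta chain that LFA-1 shares with other leukocyte integrins, was lower, at 642.0 ± 14.9 against 753.9 ± 9.31 CPM (-0.23, SE 0.06, adjusted p = 0.0166, but 0.0761 without KO replicate 2 and 0.0546 without WT replicate 2).

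A wider set joined the E1, E2 and HERC enzymes, modifiers and deconjugases of ubiquitin, SUMO, NEDD8 and the like. It also held the 2 other ISG15 ligases and the 6 other ISG15 proteases described above. Of its 83 genes 79 were tested, 17 rose and 7 fell. The median log2 fold change was 0.03, against -0.02 over all genes tested. Of all genes tested, 18.1% rose and 19.0% fell. Among called genes, 70.8% of those in the set were higher, against 48.7% of all. In the alternatives other than glmTreat, that share of the set ran from 60.0% (upper-quartile scaling) to 77.8% (without WT replicate 1). Under the replicate block 26 rose and 8 fell. Without WT replicate 2, 10 rose and 6 fell, and without KO replicate 1 or KO replicate 2, 11 rose and 4 fell. Among 9 other E1 enzymes 1 rose and 2 fell, Sae1 of the SUMO pathway and Atg7 of autophagy (-0.27 each, adjusted p = 0.0143 and 0.00428). Sae1 lost its call without KO replicate 1 (0.0518) or KO replicate 2 (0.0615). Among 35 tested E2 enzymes 8 rose and 5 fell, with 4 to 9 rising and 3 to 4 falling when 1 library was left out and 5 rising and 6 falling under upper-quartile scaling. The largest changes were those of Ube2c, the E2 of the mitotic APC/C (-1.44, adjusted p = 6.03e-05), and Ube2t, which serves DNA repair (-1.04, adjusted p = 0.00290).

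Of 14 other modifiers 6 rose and 0 fell, with Ubd at 21, 15 and 16 counts in KO against 7, 4 and 0 in WT libraries (log2 fold change 2.41, SE 0.56, adjusted p = 0.00811), a change that rests on few reads. Ubd encodes FAT10, a further modifier known to be induced by cytokines. Of 10 deconjugases of other modifiers, only Senp1, a SUMO protease, passed (0.41, adjusted p = 0.00110), and of 4 other HERC genes only Herc3. With the block, or without WT replicate 1, 2 deconjugases and 2 HERC genes passed, and 9 of the other modifiers rose with the block.

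Of 15 proteins reported as ISG15 substrates, 8 had a higher transcript level (18.1% of all genes tested) and 0 a lower one (19.0% of all). The median log2 fold change of the 15 was 0.35. Ifih1, which encodes the RNA sensor MDA5, was among those that changed most, at 956.5 ± 95.2 CPM in KO and 473.4 ± 100.8 in WT BMDM (SD, n = 3 each, log2 fold change 1.01, adjusted p = 6.23e-04). Transcript levels do not show how much of a substrate carried ISG15, which was not measured.

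The axis known to induce these genes, from IFN-β through its receptor to ISGF3, was higher in 7 of 9 genes. The share higher among all genes tested was 18.1%. The axis had a median log2 fold change of 0.65. Ifnb1, the ligand, was at 19.2, 13.1 and 15.4 CPM in KO and 8.86, 5.91 and 4.32 CPM in WT libraries (1.32, SE 0.23, adjusted p = 0.00200), and Irf7, the transcription factor that amplifies IFN production, was the largest of the list at 1744.1 ± 139.5 against 605.4 ± 119.0 CPM (1.53, SE 0.13, adjusted p = 9.07e-05). Ifnar1, a chain of the receptor, had a log2 fold change of 0.19 (adjusted p = 0.0565, or 0.00222 with the block). All 6 genes of the IFIT family, antiviral RNA-binding proteins induced by the same signal, rose, with a median of 1.08, led by Ifit1bl1 (1.66, adjusted p = 8.65e-04) and Ifit3b (1.23, adjusted p = 3.60e-04).

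**Figure D4:**
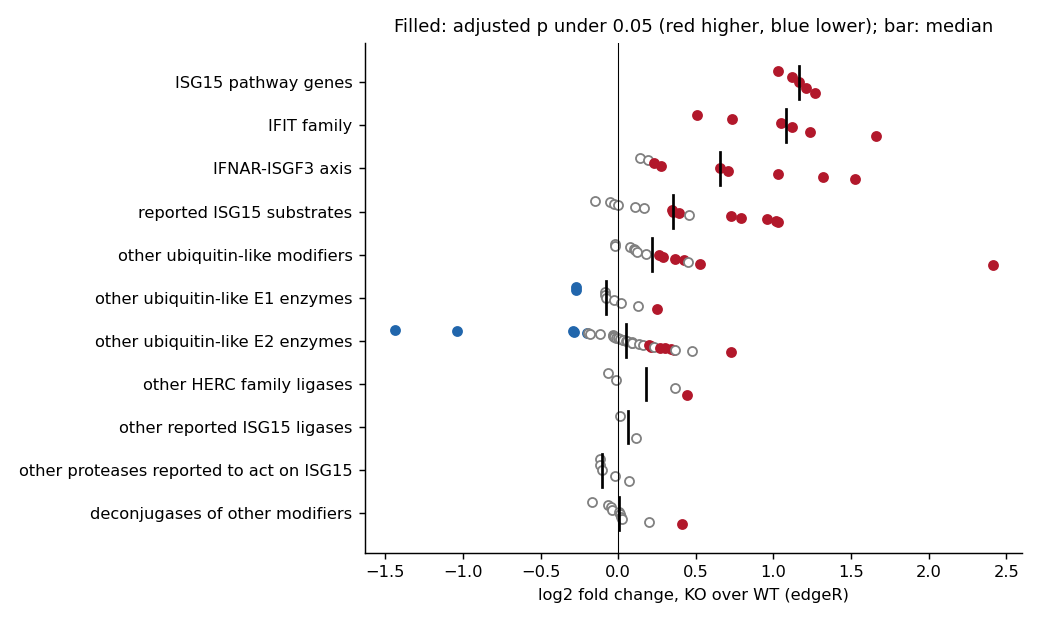
Log2 fold change, KO over WT (x axis), of every tested gene of each list, with filled points for an adjusted p under 0.05 (red higher, blue lower) and a bar at the median of the list. The 5 pathway genes, the IFIT family and most of the IFNAR-ISGF3 axis lie to the right, and the other ubiquitin-like enzymes centre near 0.

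Fibroblast markers were lower in KO BMDM in 4 of 4 genes (median log2 fold change -2.004), with summed levels of 22.7 to 33.4 CPM in KO and 74.9 to 117.7 CPM in WT libraries. Col1a1 and Col1a2, the chains of type I collagen, fell most (-2.10 and -2.05, adjusted p = 3.90e-05 and 5.65e-05). Their part in the differences above was not tested. Neutrophil markers summed to 0.745 to 1.10 CPM, T and NK cell markers to at most 0.212 CPM and B cell markers to 0.501 to 1.34 CPM over all libraries, and Ly6g and Cd8a had 0 counts. Dendritic cell markers summed to 1.03 to 1.82 CPM in KO and 0.763 to 1.11 CPM in WT libraries, and Siglech was the 1 that rose (0.97, adjusted p = 0.0194, but 0.0562 to 0.0717 without KO replicate 2 or 3 or WT replicate 2 or 3).

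Within each genotype the 5 genes also shared an order of the libraries. Replicate 1 was the highest and replicate 3 the lowest in KO and in WT in 5 of 5 pathway genes, an order found in 1461 of 13680 genes (10.7%). With every KO library above every WT library, all 15 pairs of the same number were necessarily higher in KO. The ratio within these pairs ran from 1.71-fold (Herc6, replicate 1) to 2.71-fold (Ube2l6, replicate 3).

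Genes with a profile most like that of the pathway were found by the Pearson correlation of log2 CPM over the 6 libraries with the mean of the 5 pathway genes, which largely reflects the difference between the genotypes and is given as a description. The 5 pathway genes, each a part of that mean, necessarily follow it, and they correlated with it at 0.985 to 0.999. Of the 13662 genes compared, 433 other genes (3.17%) exceeded 0.99. The nearest other genes were Themis2, a signalling adaptor of myeloid and B cells (0.9998), Pxk (0.9997), Dhx58, which encodes the RNA sensor LGP2 (0.9994), Isg20, an IFN-stimulated exonuclease (0.9993), and Cndp2, a dipeptidase (0.9993). Their log2 fold changes were 1.02, 0.69, 0.83, 1.65 and 0.48 in that order, so genes of like profile differed in the size of the change. In Isg20, for example, levels were 225.1, 206.2 and 179.6 CPM in KO and 84.3, 61.1 and 48.6 CPM in WT libraries.

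**Figure D5:**
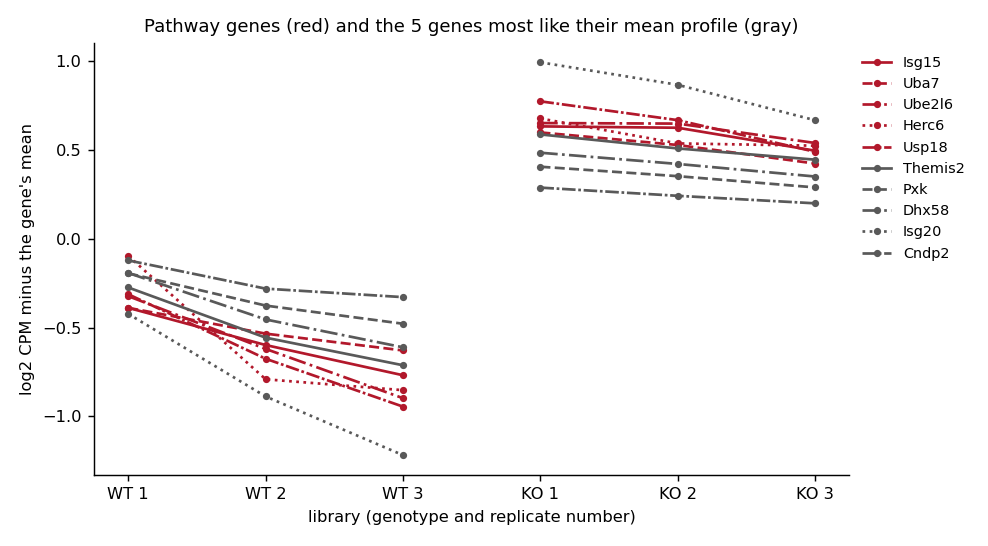
Log2 CPM minus the mean over the 6 libraries (y axis) in each library (x axis) for the 5 pathway genes (red) and the 5 genes most like their mean profile (gray). All 10 genes lie above 0 in the KO and below 0 in the WT libraries, and Isg20 spans the widest range. Replicates are placed by their numbers, which are labels and not a series.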

How the data were processed

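RNA-Seq libraries of poly(A) RNA, 3 from PP2Ac KO and 3 from PP2Ac WT BMDM, had been sequenced as paired reads of 150 bases with a strand-preserving kit. The authors deposited raw read counts per gene, not normalized. The submitters' processing notes name fastp 0.20.0, STAR 2.7.1a, HTSeq 0.11.2, kallisto 0.46.1, edgeR 3.34.0 and limma 3.48.3 with builds mm10 and GRCm38. The annotation release and strand setting of the counting are not given in the sources used here, so reads of overlapping genes may be split or dropped. Reads were counted without molecular identifiers.

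Genes were kept by filterByExpr (minimum count 10, minimum total 15), scaled by TMM and tested with the quasi-likelihood test of edgeR 4.0.16 in R 4.3.3 with Benjamini-Hochberg adjustment over 13680 genes. All adjusted p-values without another name come from that test, which was tested on simulated data. Ratios of 2 genes were compared with two-sided exact permutation tests. Those against relatives, and the test within pairs, were added after the values of the fits had been seen. Replicate numbers were shared by the genotypes in the labels. Deviations from the genotype means correlated at 0.289, 0.148 and 0.337 between same-numbered libraries. Between libraries of different numbers they correlated at -0.258 to -0.0312. The numbers were therefore taken to pair the libraries. The main fit did not use this pairing, and a fit with the number as a block was an alternative.

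The 5 genes and all lists were chosen with earlier results of these data known. Named genes were the 5 members, Ppp2ca, their relatives, the other ISG15 ligases, proteases and receptor chains, the 2 largest changes at an adjusted p under 0.05 in each list, and the 5 genes of most similar profile. Some genes that this rule selects are not reported here. Ubb and Ifnar1 were named after their values were seen. Positions come from GENCODE M21 on GRCm38, and promoters from RefSeq on GRCm38.p6. The other alternatives were DESeq2 1.42.0, limma-voom (limma 3.58.1), RLE and upper-quartile scaling, no filter, a minimum of 10 counts in every library, a test against a log2 fold change of 1, and leaving out each library.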

Additional observations from a re-analysis of the deposited data

How the results depend on the processing

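Each of the 5 genes was higher in KO under all 14 alternatives, with log2 fold changes of 1.08 to 1.27 (Isg15), 0.97 to 1.10 (Uba7), 1.08 to 1.37 (Ube2l6), 0.98 to 1.40 (Herc6) and 1.13 to 1.45 (Usp18). All 5 passed an adjusted p of 0.05 in 13 alternatives, with 0.00708 (Herc6) as the highest. Under glmTreat, which asks for more than a 2-fold change, the counts were 0 at either threshold, with the fold changes as fitted (1.16, 1.03, 1.21, 1.12 and 1.27). With a log2 fold change over 1 and an adjusted p under 0.01, leaving out 1 library gave 3 to 5 genes, 3 without WT replicate 3, and upper-quartile scaling gave 4. The log2 ratio of Herc6 to Isg15 ran from -0.11 to 0.13 when 1 library was left out, above 0 without KO replicate 2 (0.031) or WT replicate 1 (0.13), with overlap in the full data. Upper-quartile scaling moved the median of all genes to -0.088 and the share higher among called genes from 48.7% to 38.4%. In the wider set of 83 genes, 12 then rose and 8 fell. With the replicate block, 26 of the 83 rose, and the block ended no call of the 5 genes (adjusted p = 2.60e-08 to 2.44e-06). It moved 18 listed genes across an adjusted p of 0.05 and changed no other listed call. The cause was not tested. Counts of a few reads, as for Ubd, limit those values.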
